A study of Saccharomyces cerevisiae with 116 samples.

Results

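The genes of the proteasome and its transcription factor RPN4 (YDL020C) were followed through 116 RNA sequencing libraries of diploid budding yeast, Saccharomyces cerevisiae. Of the 36 lines sampled, 20 were labelled as having gained or lost chromosomes. The 33 genes were chosen by systematic name, out of 7126 features in the count files: 14 subunits of the core particle, 18 subunits of the regulatory particle and RPN4. RPN2 (YIL075C), a further regulatory subunit and the listed one on chromosome IX, was not among the 33 and is given beside them where a result turns on it. All 33 were found in every library, with at least 243 counts each, and all passed the filters on low counts.

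The 7 core beta subunits are PRE1 (YER012W), PRE2 (YPR103W), PRE3 (YJL001W), PRE4 (YFR050C), PRE7 (YBL041W), PUP1 (YOR157C) and PUP3 (YER094C). The 7 core alpha subunits are SCL1 (YGL011C), PRE5 (YMR314W), PRE6 (YOL038W), PRE8 (YML092C), PRE9 (YGR135W), PRE10 (YOR362C) and PUP2 (YGR253C). The 6 ATPases of the base are RPT1 (YKL145W), RPT2 (YDL007W), RPT3 (YDR394W), RPT4 (YOR259C), RPT5 (YOR117W) and RPT6 (YGL048C), and its 3 other members here are RPN1 (YHR027C), RPN10 (YHR200W) and RPN13 (YLR421C). The 9 lid subunits are RPN3 (YER021W), RPN5 (YDL147W), RPN6 (YDL097C), RPN7 (YPR108W), RPN8 (YOR261C), RPN9 (YDR427W), RPN11 (YFR004W), RPN12 (YFR052W) and SEM1 (YDR363W-A). The genes are spread over 12 chromosomes, with 7 on IV and 6 on XV.

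Per the labels, all lines come from mutation accumulation, in which a line is passed through single-colony bottlenecks on rich glucose plates. The HH lines descend from a homozygous ancestor derived from S288C, ho and carrying ura 3-52, leu2-3.112 and ade2 beside lys2-801 and his3-delta-D200, and went through 2063 generations. The Hh lines descend from a heterozygous ancestor, ho and ura3, made by crossing NCYC 3631, a derivative of the oak strain YPS606, with NCYC3596, a derivative of DBPVG1106, and went through 2108 generations. Among the HH lines the labels gave 10 as aneuploid and 11 as euploid, among the Hh lines 10 and 5 in the same order, and the ancestors were sampled before mutation accumulation (Hh ancestor in 3 libraries, HH ancestor in 2 libraries of run 2 and 3 of run 1). Each line was read from 3 colonies grown at 30 °C to log phase in liquid YPD. Within an experiment, each gained chromosome that carries a member was labelled in 1 or 2 lines only, so a chromosome and the other mutations of its line cannot be told apart.

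The 26S proteasome degrades proteins tagged with ubiquitin. Its barrel-shaped core particle has outer rings of alpha subunits that gate the entrance and inner rings of beta subunits, some of which carry the proteolytic sites, and its regulatory particle has a base with a ring of ATPases that unfold substrates and a lid that removes the ubiquitin. In yeast, Rpn4 activates the subunit genes by binding the proteasome-associated control element, and Rpn4 is itself a short-lived substrate of the proteasome, which closes a feedback loop.

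The control element, GGTGGCAAA, was searched on both strands in the 300 bases before the start codon of 6002 protein-coding genes in the RefSeq assembly R64. It was in 26 of the 32 subunit windows (81.25%) and in 73 of all 6002 (1.22%). The core particle had it in 12 of 14 windows and the regulatory particle in 14 of 18, each window once, 18 on the gene's strand and 8 on the other. Its distance to the start codon ran from 84 to 183 bases, with a median of 122. The 6 subunits with no exact match were PUP1, PRE5, RPN10, RPN13, RPN8 and SEM1. With at most 1 letter different the element was in all 32 subunit windows and in 464 of 6002 (7.73%), so that each of those 6 held a near match, while RPN4's own window held neither. RPN2 had the exact element. The shorter forms GGTGGCAA and GGTGGC, which lie inside the element, were in 98 (1.63%) and 387 (6.45%) of the 6002 windows and in 26 and 29 of the 32 subunit windows. The sites of 3 subunits on chromosomes gained in these lines are shown first, then the near matches of 4 subunits without the exact element. Each is written 5′ to 3′ on the gene's strand with 16 bases on either side, and capitals mark the element or, where the gene carries it on the other strand, its reverse complement.
RPN1: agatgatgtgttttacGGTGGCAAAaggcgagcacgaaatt
PRE2: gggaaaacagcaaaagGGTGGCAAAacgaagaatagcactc
RPN7: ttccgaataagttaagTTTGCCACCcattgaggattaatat
PUP1: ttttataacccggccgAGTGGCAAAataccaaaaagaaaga
RPN13: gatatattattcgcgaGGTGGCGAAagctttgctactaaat
RPN10: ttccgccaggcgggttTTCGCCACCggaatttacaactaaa
RPN8: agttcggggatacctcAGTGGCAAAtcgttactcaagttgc
In R64 these lie at chrVIII:164832-164872 (RPN1, minus strand), chrXVI:732178-732218 (PRE2, plus), chrXVI:742284-742324 (RPN7, plus), chrXV:631885-631925 (PUP1, minus), chrXII:965650-965690 (RPN13, minus), chrVIII:498962-499002 (RPN10, plus) and chrXV:817079-817119 (RPN8, minus). A match is a description of the letters and not a measurement of binding. Among the other genes of the pathway the exact element was in the window of ECM29, a proteasome-binding protein, of UBI4, a ubiquitin gene, of UBA1, the ubiquitin-activating enzyme, of CDC48, the segregase that extracts ubiquitinated proteins, and of YAP1, a stress transcription factor.

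Levels were compared between genes on the deposited FPKM scale, which divides by length. The median subunit stood at 272 FPKM over 48 Hh libraries and 403 FPKM over 68 HH libraries, against a median of 43.5 and 42.0 FPKM over all 7126 features. SEM1, the small lid subunit, was highest in both, with a median of 579 FPKM in Hh libraries and 1451 FPKM in HH libraries. The low end held RPN1, a base subunit that docks ubiquitin receptors (135 FPKM in Hh and 83.8 FPKM in HH), RPN7 of the lid (117 FPKM in Hh and 154 FPKM in HH) and PUP1, the core beta subunit with trypsin-like activity (142 FPKM in Hh and 135 FPKM in HH). RPN2 was low as well, at 131 FPKM in Hh and 150 FPKM in HH. In the order of levels, the interquartile ranges of neighbours overlapped throughout in Hh, and in HH everywhere except between SEM1 and PUP3 and between RPN9 and RPN7. RPN4 sat among its targets, at 274 FPKM in Hh and 396 FPKM in HH.

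The number of reads assigned to genes lay between 4129372 and 12148296. Classes were compared over lines, each the sum of its colonies, so n counts lines there. Library names of HH lines start with SC or X, taken here for the 2 runs of the HH ancestor, and each HH comparison has a term for this name series. The ancestor's names start with SC in run 1 and with MA_Anc in run 2. The pairing of X lines with run 2 is thus an assumption that no name states. The X series holds 5 of the 10 aneuploid HH lines and 2 of the 11 euploid ones, HH50 and HH115. Some libraries went against their karyotype label. Chromosome V in HH123 replicate 1, VII in all 3 colonies of HH152, VII in Hh59 replicate 1 and XV in Hh11 replicate 1 lay near 2 copies. Chromosome VIII in HH152 and XII in Hh18 lay near 3 without a label, as did XII in Hh11 replicate 1, and chromosome I of that library, labelled monosomic, was raised. Dosage ratios, slopes, the called class differences of members and the co-variation with RPN4 are also given without these 9 doubted libraries or their lines.

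Subunits encoded on a gained chromosome were higher than the other subunits of the same line in 11 of 12 lines. The measure is the log2 ratio of CPM, the read count scaled to the size of the library, plus a pseudocount of 0.5, to the mean of the euploid lines of the same experiment and name series, less the median ratio of genes on chromosomes altered in no line of the experiment. Of 37 pairs of a subunit and a line labelled with a gain of its chromosome, 34 had a ratio above 0. The 35 pairs on a trisomic chromosome had a median of 0.59, against 0.58 for a level in proportion to 3 copies over 2. In Hh the 21 trisomic pairs had a median of 0.71 and in HH the 14 trisomic pairs had a median of 0.34, with 4 of the HH pairs from HH152, whose chromosome VII as a whole stood at 0.01. Without the doubted libraries 33 of 33 pairs were above 0, and the trisomic pairs had a median of 0.80 in Hh (21 pairs) and 0.55 in HH (10 pairs). These ratios share the euploid lines as denominator, and pairs of a line share its libraries, so no test was made over pairs.

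**Figure D1:**
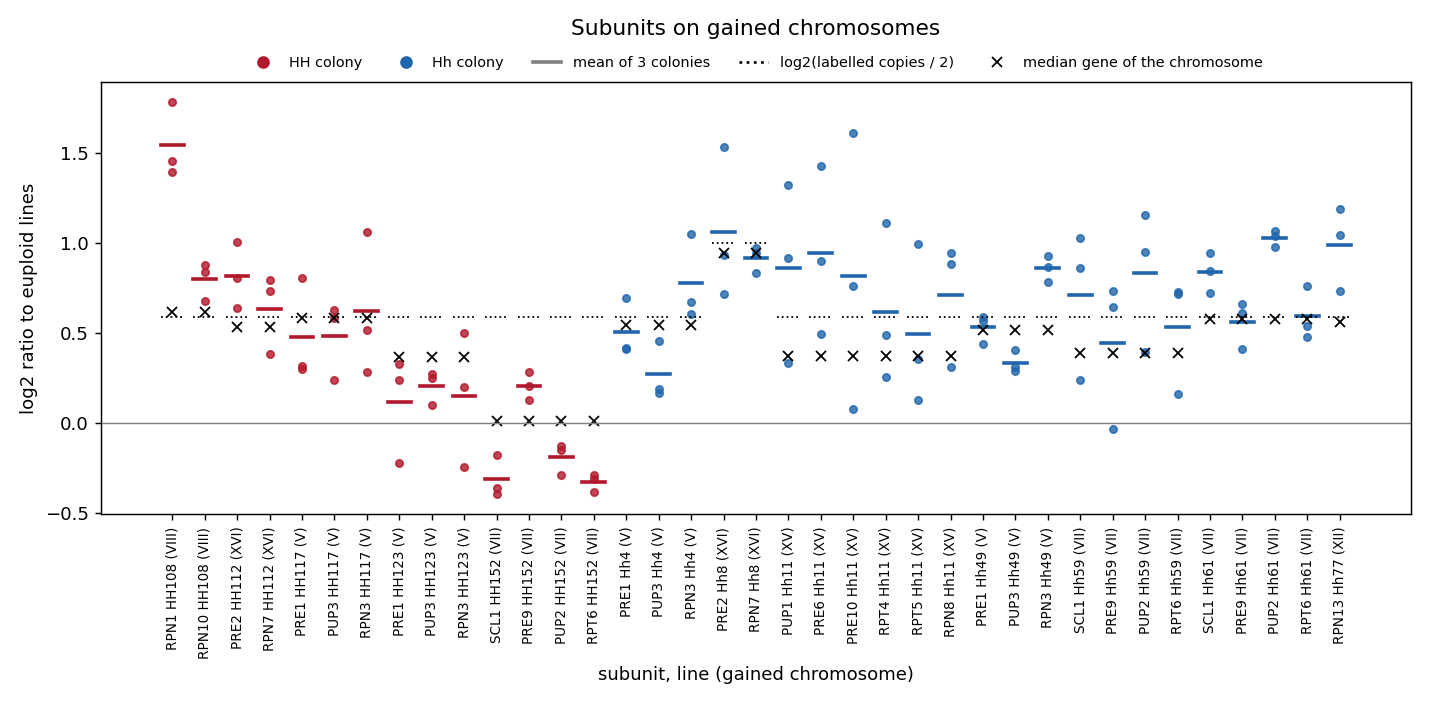
Log2 ratio to the euploid lines (y axis) of each subunit on a labelled gained chromosome, for each colony (points) and their mean (bars), by subunit and line (x axis), with the labelled proportion dotted and the median gene of the chromosome as a cross. RPN1 in HH108 lies far above its chromosome, and the subunits of HH152 lie around 0 with their chromosome.

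Set line by line, the subunits on the altered chromosome exceeded the remaining subunits in 11 of 12 lines, with a median difference of 0.54 on the log2 scale. The difference was 0.99 in Hh8, which has 4 copies of XVI, and -0.23 in HH152. Without the doubted libraries, which removes HH152 whole, the subunits on the altered chromosome were higher in 11 of 11 lines, with a median difference of 0.64. The remaining subunits, on chromosomes labelled with 2 copies, had medians between -0.30 (HH88) and 0.31 (HH108) over the 20 aneuploid lines and lay above 0 in 12 of them. The medians above 0 came from 9 of the 10 Hh lines, all but Hh7, and from 3 of the 10 HH lines, HH29, HH108 and HH112.

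PRE2, the chymotrypsin-like beta subunit, and RPN7, of the lid, lie on XVI, with 4 copies in Hh8 and 3 in HH112. PRE2 had 337, 506 and 287 CPM in the 3 colonies of Hh8, all above the 158 to 222 CPM (median 173) of the euploid Hh lines. RPN7 had 285, 278 and 257 CPM in Hh8, against 120 to 181 CPM (median 149) in euploid Hh lines, again with no overlap. Their mean log2 ratios of 1.06 ± 0.42 and 0.92 ± 0.07 (SD, n = 3 colonies) stood beside 1 for 4 copies and 0.94 for the chromosome's median gene. In HH112 the ratio was 0.82 ± 0.18 for PRE2 and 0.63 ± 0.22 for RPN7, beside 0.53 for the chromosome.

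Chromosome V carries PRE1, a beta subunit, PUP3, another beta subunit, and RPN3 of the lid. RPN3 had 513, 549 and 497 CPM in Hh49 and 426, 592 and 455 CPM in Hh4, against 251 to 329 CPM in euploid Hh lines. PUP3 had 209, 210 and 229 CPM in Hh49 and 188, 234 and 195 CPM in Hh4, inside the 150 to 246 CPM of euploid Hh lines. The log2 ratio was 0.86 in Hh49 and 0.77 in Hh4 for RPN3, and 0.33 in Hh49 and 0.27 in Hh4 for PUP3. In HH117 the 3 genes had ratios of 0.47, 0.48 and 0.62 for PRE1, PUP3 and RPN3. In HH123, where replicate 1 lay near 2 copies of V, the ratios of colonies 2 and 3 were 0.33 and 0.24 for PRE1, 0.10 and 0.25 for PUP3 and 0.50 and 0.20 for RPN3.

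On VII lie the alpha subunits SCL1, PRE9 and PUP2 and the base ATPase RPT6. PUP2 had 328, 318 and 323 CPM in Hh61 and 218, 357 and 300 CPM in Hh59, all above the 149 to 184 CPM of euploid Hh lines. The ratios of the colonies of Hh61 were 1.04, 0.98 and 1.06 for PUP2, above those of the other subunits on VII in the same colonies, beside 0.57 for the chromosome, while PRE9, which yeast can live without, had 0.56 ± 0.13 there. In Hh59 the ratios of replicate 1 were -0.04 to 0.39 with the chromosome at 0.00, and those of colonies 2 and 3 were 0.64 to 1.16 with the chromosome at 0.58. The same genes had mean ratios of -0.33 to 0.20 in HH152, whose label also gives 3 copies of VII.

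Chromosome XV holds 6 subunits, PUP1, PRE6, PRE10, RPT4, RPT5 and RPN8, and is gained in Hh11 only. Replicate 1, near 2 copies of XV, had ratios of 0.07 to 0.49. Replicates 2 and 3 had ratios of 0.36 to 1.61. PRE10, an alpha subunit, had 204, 606 and 332 CPM in the 3 colonies, against 174 to 279 CPM in euploid Hh lines. The chromosome as a whole had ratios of 0.03, 0.52 and 0.57 in the same colonies, a narrower range than that of PRE10. Elsewhere in Hh11, the 26 remaining subunits had a median of 0.24.

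RPN13, a ubiquitin receptor of the regulatory particle, is the subunit on XII. It had 206, 222 and 163 CPM in Hh77, labelled trisomic for XII, against 85.9 to 119 CPM in euploid Hh lines. It was also high in Hh18, with 202, 190 and 140 CPM, where XII was raised in all 3 colonies without a label (0.55 to 0.60). In Hh11 it had 184, 173 and 154 CPM, although XII was raised only in replicate 1 (0.55) and stood at -0.04 and -0.05 in replicates 2 and 3.

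RPN1 and RPN10, a ubiquitin receptor at the junction of base and lid, lie on VIII, which the labels give as gained in HH108 alone, together with a loss of IX. RPN1 had 759, 563 and 618 CPM in HH108, against 167 to 365 CPM (median 216) in euploid HH lines, and RPN10 had 532, 503 and 475 CPM, against 217 to 449 CPM (median 285). The ratio was 1.54 ± 0.21 for RPN1 and 0.80 ± 0.10 for RPN10 (SD, n = 3 colonies), beside 0.61 for the chromosome. In HH152, with VIII raised without a label, RPN1 had log2 ratios of 0.33, 0.93 and 1.01, and RPN10 had ratios of 0.32, 0.24 and 0.22. RPN1 also differed between the runs of the HH ancestor, with 411 and 393 CPM in run 2 against 161, 215 and 166 CPM in run 1.

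A dosage slope put these values into 1 test over all lines of an experiment: edgeR's quasi-likelihood fit of the summed counts on log2(labelled copies / 2), where 0 is no change and 1 is in proportion to copies, with Benjamini-Hochberg adjustment over all genes on altered chromosomes. In Hh the slopes of the 16 subunits tested ran from 0.46 (PUP3) to 1.59 (PRE10), with a median of 0.94, beside 0.80 over 2952 genes. Of these, 12 differed from 0, where 36.6% of all genes tested did, and 0 were called different from 1 by edgeR, also before adjustment, where 0.0339% of all genes were. PUP3, PUP1, RPT4 and RPN13 missed the threshold (adjusted p of 0.27, 0.080, 0.061 and 0.053). They were thus called different from neither 0 nor 1, with PUP3 at 0.46 ± 0.33 (SE). A slope without a call against 1 is therefore not shown to be in proportion to copies, and equality with 1 was not tested. PUP2 had 1.34 ± 0.23 (SE, adjusted p = 0.00063), RPN3 1.23 ± 0.23 (adjusted p = 0.0012), PRE2 0.91 ± 0.17 (adjusted p = 0.0012) and RPN7 0.85 ± 0.17 (adjusted p = 0.0017). Without the doubted libraries 14 of 16 differed from 0, all but PRE1 and PUP3, where 1257 of 2950 genes did, and the median was 1.18 beside 0.89 for all genes. PRE10 was then at 2.09 ± 0.33 (SE), which did not pass the test against 1 (adjusted p = 0.26). Without replicate 3 of every line, 6 differed from 0. XVI, XV and XII each rest on a single Hh line, and V and VII on a pair.

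In HH the 11 subunits tested had a median slope of 0.61, beside 0.73 over 2220 genes. Slopes of 2 of them differed from 0, where 28% of all genes tested did: RPN1 with 2.68 ± 0.50 (SE, adjusted p = 0.00037) and RPN10 with 1.39 ± 0.46 (SE, adjusted p = 0.027). Of the 11, 0 were called different from 1 by edgeR, where 8.2% of all genes were, with 4 at an unadjusted p under 0.05 (RPN1, SCL1, PUP2 and RPT6) and RPN1 nearest to the threshold (adjusted p = 0.051). PRE2 had 1.08 ± 0.51, RPN7 0.95 ± 0.40, RPN3 0.82 ± 0.40, PUP3 0.61 ± 0.30 and PRE1 0.29 ± 0.35 (SE), none of which passed the threshold after adjustment. Against 1 these subunits also went uncalled, so for them the fit does not separate no change from proportion to copies. The 4 subunits on VII had slopes of -0.45 to 0.44, where the median gene of VII had -0.02, and rest on HH152. Of the 182 genes behind the 8.2%, 117 lie on VII, which lay near 2 copies in HH152. The median of 0.73 over 2220 genes includes 519 genes of VII. Leaving out the doubted libraries removed VII, brought the median of the other 7 to 1.01 beside 0.86 for all genes, added RPN7 to the calls (adjusted p = 0.0497), where 665 of 1612 genes differed from 0, and put RPN1 past the test against 1 (adjusted p = 0.032), where 74 of 1612 genes passed. VIII rests on HH108 and XVI on HH112. RPN2 on IX, the chromosome with both gains and losses in HH, had a slope of 0.53 ± 0.17 (SE, adjusted p = 0.023 against 0 and 0.071 against 1), and 0.53 in Hh (adjusted p = 0.43).

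**Figure D2:**
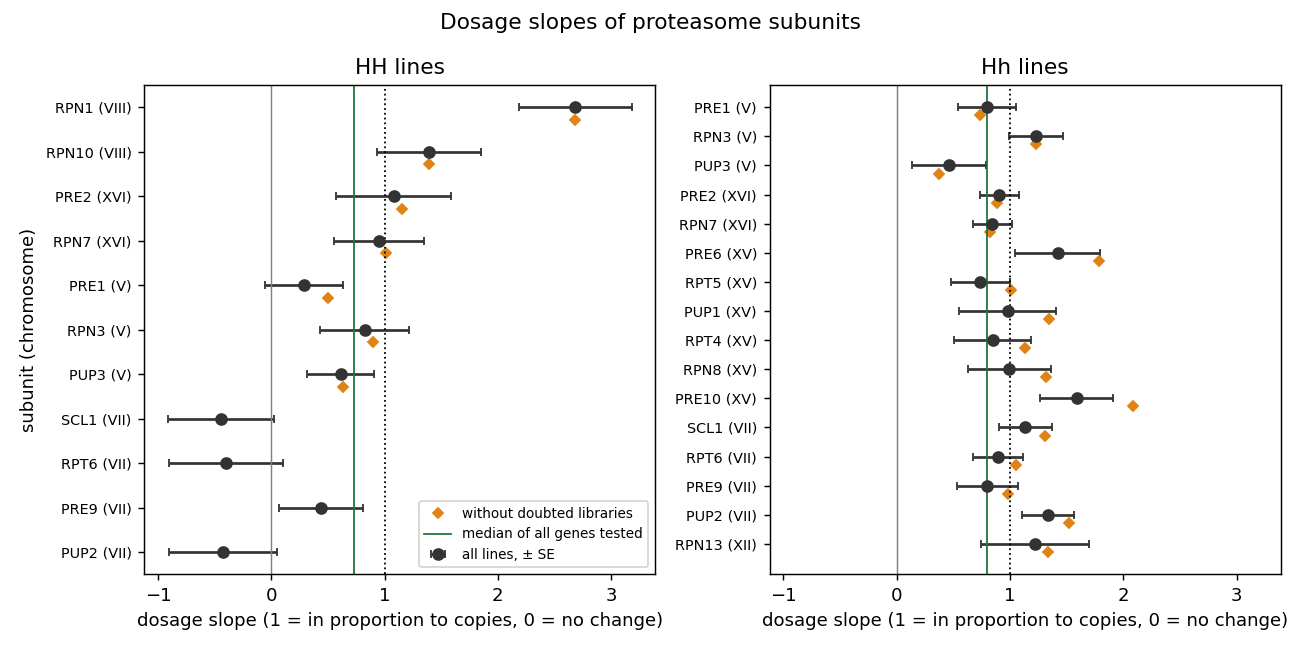
Dosage slope with its SE (x axis; 0 is no change and 1, dotted, is in proportion to copies) for each subunit on an altered chromosome (y axis), in HH lines (left) and Hh lines (right), with diamonds for the fit without doubted libraries and a green line at the median of all genes tested. Most Hh subunits lie around 1, while RPN1 in HH lies at 2.68 and the 4 subunits on VII in HH lie below 0.5.

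In HH108, subunits on chromosomes with 2 copies were also above the euploid HH lines. Against those lines 4 of the 33 members were called and all 4 were higher, a share no larger than the 14.5% of all genes tested that were called higher in that line: RPN1 by 1.52 ± 0.28, PUP1 by 1.16 ± 0.29, the ATPase RPT1 by 1.00 ± 0.28 and the alpha subunit PRE8 by 0.95 ± 0.19 on the log2 scale (SE, adjusted p of 0.0016, 0.0093, 0.019 and 0.0030 by edgeR). Of the 32 subunits, 30 were above 0, with a median of 0.35, while RPN4 stood at 0.00. PUP1, RPT1 and PRE8 lie on XV, XI and XIII, which have 2 copies in HH108.

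The same genes separated the 2 runs of the HH ancestor. PUP1 had 178 and 181 CPM in run 2 against 56.7, 96.3 and 59.4 CPM in run 1, a difference of 1.38 between the log2 means, and RPN1 differed by 1.16, PRE8 by 1.13, PRE3 by 0.71 and RPT1 by 0.70. Over the 30 subunits off its altered chromosomes, the log2 ratios of HH108, whose libraries are named SC as run 1 is, had r = 0.92 with the difference of run 2 and run 1, and over 5033 genes r = 0.78. These are correlations across genes, which share libraries and are not replicates. HH152 had 0.65 over 28 subunits and 0.71 over 4910 genes, and no other line exceeded 0.47 over all genes. Over subunits the remaining lines ran from -0.68 (HH11) to 0.55 (HH5 and Hh2). Set against the euploid lines named X instead, HH108 had 0 of 33 members called, where 314 of 6130 genes were called higher and 487 lower (edgeR, 8 at an unadjusted p under 0.05; RPN1 1.02 ± 0.36, adjusted p = 0.082), although all 32 subunits were above 0, with a members' median of 0.36. Against run 2 of the ancestor only RPN10 was called (0.85, adjusted p = 0.027; 4 members at an unadjusted p under 0.05), where 174 of 6203 genes were called higher and 334 lower, and the slope of RPN1 was 1.56 ± 0.56 (SE, adjusted p = 0.038) with HH108 among the X lines, against 2.68 with it among the SC lines. The share of reads that did not align uniquely also differed. It was 30.4%, 36.3% and 37.8% in the colonies of HH108, where the SC series had a median of 19.2%. The HH ancestor had 16.8% to 21.0% in run 1 and 33.9% and 40.4% in run 2. HH152 had 24.7% to 34.0%, where the X series had a median of 28.4%. What sets HH108 apart was not tested. These comparisons were chosen after its values were seen.

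Among the other 19 aneuploid lines, PRE2 in Hh8 was the single member called against euploid lines (1.01 ± 0.20, SE, adjusted p = 0.046), where 2.33% of genes in that line were called higher. With RLE scaling 0 members were called in any Hh line, and 0 to 5 when a replicate number was left out. RPN7 in Hh8 had 0.81 ± 0.21 (SE, adjusted p = 0.11). Over 10 lines each, 4.21% of all tests in HH and 0.462% in Hh were called in either direction, and each line entered as 1 sample. Among HH lines RPN4 was lowest in HH152, at 391, 385 and 300 CPM, where its log2 fold change against euploid lines was -0.91 ± 0.34 (SE, adjusted p = 0.095).

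Members were also called in a euploid line. HH4 had 9 members called higher than in the other euploid HH lines, where 6.74% of 5946 genes were: RPT1 (0.83 ± 0.17), RPN1 (0.81 ± 0.19), RPN6 (0.73 ± 0.21), RPN10 (0.71 ± 0.21), RPT4 (0.66 ± 0.19), RPN12 (0.64 ± 0.17), RPT3 (0.59 ± 0.17), RPT2 (0.58 ± 0.17) and RPN7 (0.52 ± 0.14, all log2 ± SE). All 9 belong to the regulatory particle, with 4 ATPases, 2 other base subunits and 3 lid subunits. Core subunits were raised as well, all but PRE6 (-0.04), with PRE2 at 0.60 and PRE5 at 0.54. PRE2 lay above the called RPT3, RPT2 and RPN7, while RPN13 (0.13) and SEM1 (-0.25) of the regulatory particle were low. The split between the particles thus rests in part on the threshold. The median of the 32 subunits was 480, 450 and 359 CPM in the colonies of HH4, so replicate 3 was the lowest, and the other euploid HH lines had 282 to 354 CPM. RPN4 had 1058, 1025 and 707 CPM in HH4 and a fold change of 0.39 that missed the threshold (adjusted p = 0.32). The other 15 euploid lines had 0 members called in the same kind of test by edgeR, with 6 at an unadjusted p under 0.05 in Hh5, 3 in Hh1 and 1 in HH8. HH4 was singled out after its values were seen, and it entered as 1 summed sample, so the spread comes from the other euploid lines and HH4 is assumed to vary as they do.

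**Figure D3:**
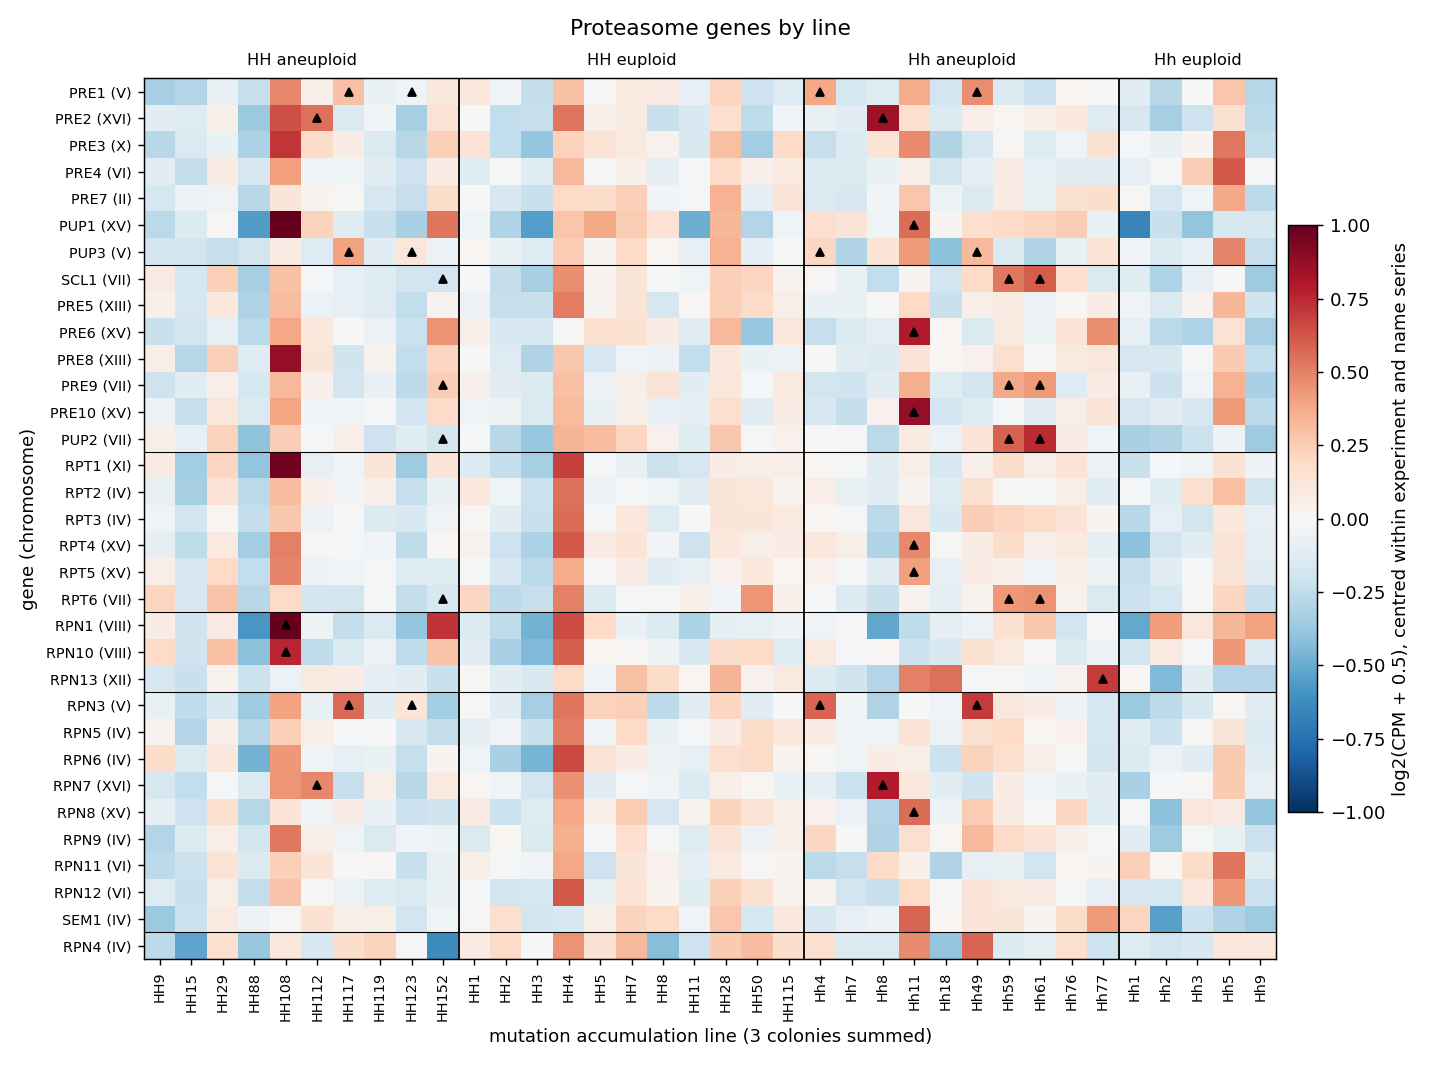
Log2(CPM + 0.5) of the 33 genes (y axis, with chromosome) in each line (x axis), centred within experiment and name series, with colour limited to ±1 and triangles where the label gives a gain of the gene's chromosome. The columns of HH108 and HH4 are red over most subunits, and most cells with triangles are red.

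No proteasome gene passed the test between the HH classes. The median of the 32 subunits was 328 ± 52.1 CPM in aneuploid lines (SD, n = 10) and 330 ± 42.7 CPM in euploid lines (SD, n = 11). Of the 33 members 0 were called by edgeR, where 0% of 6130 genes were, with 1 member and 601 genes at an unadjusted p under 0.05 and 1 gene called by DESeq2. Of the members, 10 were higher and 23 lower in aneuploid lines, with a median log2 fold change of -0.06 beside 0.01 for all genes. RPN4 had 367 to 803 CPM (median 569) in aneuploid lines and 513 to 943 CPM (median 731) in euploid lines, which overlap. Its fold change was -0.27 ± 0.14 (SE), the lowest among the members, with an adjusted p of 0.51. RPN13, the member under 0.05 before adjustment, had 225 ± 31.7 CPM in aneuploid and 282 ± 48.1 CPM in euploid HH lines (SD), and -0.19 ± 0.09 (SE, adjusted p = 0.50) once the name series was in the fit. The level of RPN13 also differed by series, with 189 and 179 CPM in ancestor run 2 and 276 to 286 CPM in run 1.

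In Hh the median subunit had 193 to 260 CPM (median 220) in the 10 aneuploid lines and 176 to 266 CPM (median 196) in the 5 euploid lines. PUP1 was the member called, with 91.0 to 141 CPM (median 107) in aneuploid lines against 60.5 to 85.8 CPM (median 81.8) in euploid lines, where groups did not overlap. Its log2 fold change was 0.47 ± 0.12 (SE, adjusted p = 0.027), in a comparison where 9.87% of 6189 genes were called. The Hh ancestor had 86.3, 108 and 103 CPM, of which 86.3 lies between the ranges of the classes and the others lie within that of the aneuploid lines. PUP1 lost the call without the doubted libraries (0.54, adjusted p = 0.062) and when Hh2, Hh3 or Hh5 was left out (adjusted p of 0.069, 0.083 and 0.075). It lies on XV, gained in Hh11 alone, and an offset for copy number kept the call (0.41, adjusted p = 0.018) and added PUP2 (0.26, adjusted p = 0.049). Over the members, 24 were higher and 9 lower, with a median of 0.10 beside 0.04 for all genes, and RPN4 had 0.10 ± 0.15 (SE, adjusted p = 0.70), with 347 to 681 CPM in aneuploid and 400 to 491 CPM in euploid lines. Before adjustment 7 members had p under 0.05: besides PUP1, PUP2 (0.40), RPN13 (0.36), SEM1 (0.35) and RPN9 (0.23) on the higher side, and PRE4 (-0.25) and RPN11 (-0.27), the deubiquitinase of the lid, on the lower.

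Whether the class effect differed between the experiments was tested as Hh minus HH in 1 fit of 36 lines. RPN13 was called, with a difference of 0.59 ± 0.18 (SE, adjusted p = 0.049), where 5.1% of 6357 genes were. RPN13 had 130 ± 33.2 CPM in aneuploid and 101 ± 12.8 CPM in euploid Hh lines (SD), the high lines being Hh77, Hh18 and Hh11, in which XII was raised in at least 1 library. Without those 3 lines the difference was 0.33 (adjusted p = 0.14), and without the doubted libraries 0.49 (adjusted p = 0.0998). RPN4 had a difference of 0.40 ± 0.21 (SE, adjusted p = 0.25), and the members' median was 0.17 beside 0.02 for all genes.

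Related genes were counted from lists of proteasome assembly and accessory factors (16 genes), ubiquitin transfer and delivery (12 genes), regulators of RPN4 (6 genes) and heat-shock chaperones (17 genes). Of these, 0 were called between the HH classes by edgeR, with 3 chaperones and no gene of the other lists at an unadjusted p under 0.05, where 601 of 6130 genes were. In Hh, PBA1, a chaperone of alpha ring assembly, was higher (61.8 ± 8.78 CPM in aneuploid and 45.7 ± 2.26 CPM in euploid lines, SD; adjusted p = 0.030), as was SPG5, which binds the regulatory particle in stationary phase (566 ± 122 and 317 ± 78.7 CPM in the same order; adjusted p = 0.020). The Hh ancestor averaged 56.2 ± 3.53 CPM for PBA1 and 695 ± 106 CPM for SPG5 (SD, n = 3). PBA1 lies on XII, which was raised in Hh77, in Hh18 and in 1 library of Hh11. Its dosage slope in Hh was 0.58 ± 0.44 (SE, adjusted p = 0.31 against 0 by edgeR), and the part of copy number in its class difference was not tested. Of ubiquitin delivery and of the regulators of RPN4, 0 genes were called in Hh, with 4 and 2 at an unadjusted p under 0.05, while with the copy-number offset 2 and 3 were called. Over all 6189 genes, 1927 had an unadjusted p under 0.05 without the offset, and with it 307 were called higher and 611 lower. Of the chaperones 9 were called and all 9 were lower in aneuploid Hh lines: HSP104, HSP82, HSC82, SSA1, SSA2, SSA4, HSP42, HSP78 and SIS1, by log2 fold changes of -0.59 to -1.34. HSP104, a disaggregase, averaged 1248 ± 353 CPM in aneuploid lines, 2717 ± 843 CPM in euploid lines and 1018 ± 382 CPM in the 3 libraries of the Hh ancestor (SD). The ranges of the classes overlapped for HSP104, with 795 to 2006 CPM in aneuploid and 1294 to 3485 CPM in euploid lines. Between the experiments, the class effect differed for 7 of the 17 chaperones (all with a difference below 0) and for 2 assembly factors and 1 regulator of RPN4 (all above 0). Over all 6357 genes, 157 were called below 0 and 167 above. The count of genes called between the Hh classes moved between 26 and 1547 when single lines were left out, and these calls rest on 5 euploid lines. That count also fell without the doubted libraries, and values of the listed genes without those libraries are not given here.

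Each line was also set against its own ancestor in a fit of single libraries, where p-values measure the spread between colonies and the lines of a series share the ancestor libraries. In HH, 25 tests of members were called, 10 in HH4 and 15 in HH108, all higher, where 2.27% of 130263 tests over all genes and lines were called. Both lines were set against run 1, which was taken from the SC in their names. Against run 2, 1 member was called in HH108. Leaving out replicate 1, 2 or 3 of every line and ancestor brought the 25 to 7, 11 and 14. Calls of higher genes made up 2.97% of all genes in HH4 and 15.9% in HH108. In HH4 the largest were RPN1 (0.98 ± 0.23, adjusted p = 0.012) and RPT4 (0.87 ± 0.21, adjusted p = 0.014), and 31 of 32 subunits were above 0 with a median of 0.56. In Hh, 3 were called, where 2.36% of 91470 tests were: PRE2 (0.91 ± 0.17) and RPN7 (0.85 ± 0.16) higher in Hh8, and RPN13 lower in Hh5 (-0.51 ± 0.17, adjusted p = 0.032). RPN4 was called in 0 of the 36 lines, with a lowest adjusted p of 0.18 in HH4 (0.78 ± 0.34, SE) and 2 lines at an unadjusted p under 0.05.

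Across lines, RPN4 and the subunits were described after centring log2(CPM + 0.5) within experiment and name series, over 36 lines and 5603 genes. All 32 subunits had a positive Pearson r with RPN4, with a median of 0.35 (Spearman rho 0.38), where the median over all genes was 0.01 and the 95th percentile 0.47. The lines share the scaling of their libraries, and no p is given. The regulatory particle had a median r of 0.46 and the core particle 0.27. RPN8 (0.67), RPN5 (0.67) and RPN3 (0.64), all of the lid, were highest, and RPN1 (0.05), PRE9 (0.10) and PRE6 (0.11) lowest. Subunits were closer to each other than to RPN4, with a median r of 0.53 over pairs. The median subunit of a line had r = 0.50 with RPN4, and 0.54 without HH152 and HH15, the 2 lines farthest from the median of RPN4. In HH alone the median r of subunits was 0.45 and in Hh alone 0.35. It was 0.48 over 16 euploid lines, 0.37 over 20 aneuploid lines and 0.31 without HH4 and HH108. The number of subunits with r above 0 was 32 in HH alone and 29 in Hh alone, 31 over euploid and 28 over aneuploid lines, and 29 without HH4 and HH108, where RPN1 had -0.14. Without the 5 lines that hold a doubted library, all 32 were above 0, with a median of 0.38. The 26 subunits with the exact control element had a median r of 0.38 and the 6 without it 0.24, and RPN8, without it, was the highest of all. For the shorter GGTGGC the order was the other way round, with 0.33 for the 29 subunits that had it and 0.48 for PUP1, PRE5 and RPN8, which did not.

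**Figure D4:**
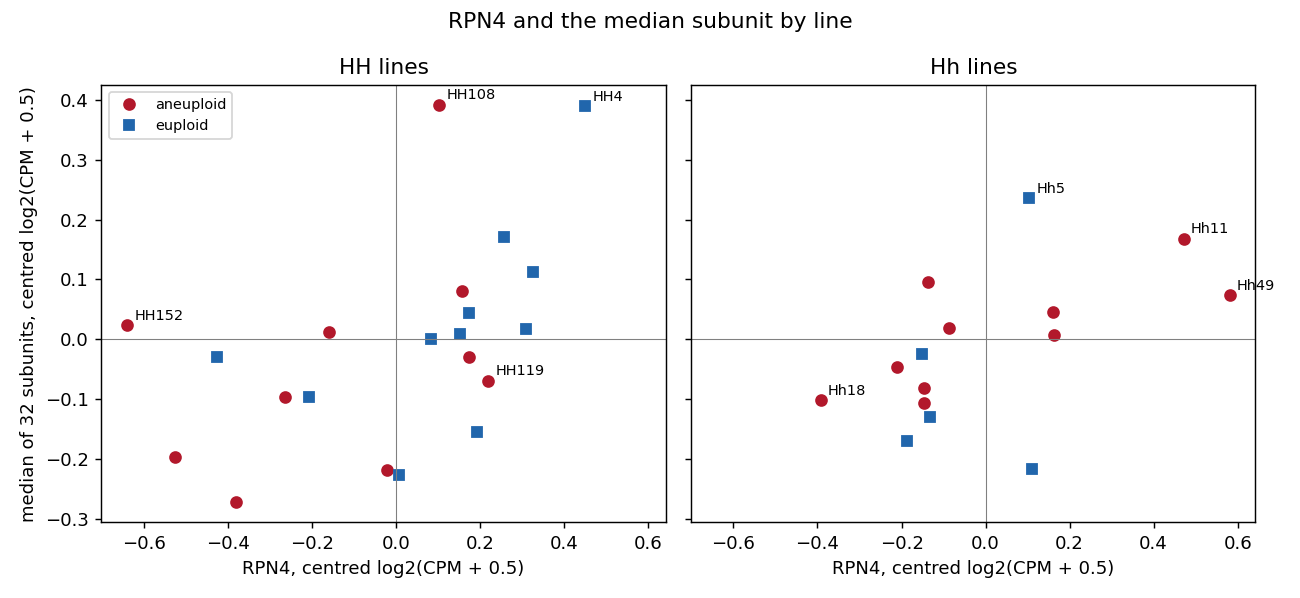
Median of the 32 subunits (y axis) against RPN4 (x axis), both as centred log2(CPM + 0.5), for HH lines (left) and Hh lines (right), aneuploid as circles and euploid as squares. HH108 is high for subunits with RPN4 near its centre, and HH152 has the lowest RPN4 with subunits near 0.

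The 10 genes most like RPN4 by r were SSH4 (0.77), RGM1 (0.73), GIP2 (0.73), SLG1 (0.71), NNR2 (0.68), PEX3 (0.68), RPN8 (0.67), RIM11 (0.67), SHE4 (0.67) and YMR196W (0.67), over 36 lines. RPN8 was the one subunit among these, and 6 subunits were in the first 100. Of the listed genes outside the 33, YAP1 had 0.66, HSM3, an assembly chaperone of the base, 0.66, and DDI1, a shuttle protein with a protease fold, 0.59, while RPN2 had -0.01. The lists as a whole had median r of 0.33 (regulators of RPN4), 0.28 (ubiquitin transfer and delivery), 0.24 (assembly and accessory factors) and -0.02 (heat-shock chaperones).

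The strains were compared through their ancestors and their euploid lines. In the Hh ancestor set against run 2 of the HH ancestor, 17 of the 33 members were called and all 17 were lower, where 25.2% of 6046 genes were called lower (1525 genes, beside 1500 called higher). The core particle accounted for 11 of its 14 subunits with a median of -0.82, and the regulatory particle for 6 of 18 with a median of -0.36. PRE2 had 204, 196 and 200 CPM in the Hh ancestor, against 421 and 371 CPM in run 2 of the HH ancestor, with no overlap (-0.97 ± 0.19, SE, adjusted p = 0.00125). PRE8 had 139, 158 and 167 CPM, against 342 and 302 CPM (-1.05 ± 0.18, SE, adjusted p = 0.00055). RPN4 did not follow, with 444, 498 and 458 CPM in the Hh ancestor and 442 and 469 CPM in run 2 (0.05 ± 0.22, SE, adjusted p = 0.87). Without replicate 1 of run 2 the count was 11. Strain, experiment and library set cannot be told apart here.

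Against run 1 the picture changed for some members. The median over members was -0.23, 12 were called lower, where 30.7% of genes were, and PUP1 (0.50, adjusted p = 0.047) and RPN1 (1.27 ± 0.21, SE, adjusted p = 0.00027) were called higher. PRE8 stood at 0.08 and RPN4 at -0.18. PUP1, RPN1 and PRE8 are the 3 members with the largest difference between the runs. PUP3, PRE10, PUP2, PRE9, PRE1, PRE5, SCL1, RPN10 and SEM1 were called lower against both runs.

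The euploid lines gave a further reading of the strain difference. Against the 2 HH lines named X, 22 members were called and all were lower in Hh, where 24.4% of 6336 genes were lower, and against the 9 named SC, 29 were lower, where 36.1% of 6210 genes were. Members had medians of -0.61 in each comparison, beside 0.03 and -0.01 for all genes. SEM1 was -1.33 against X lines and -1.88 against SC lines, PUP2 -1.34 and -1.48, and RPN13 -1.01 and -1.56. RPN1 went the other way, at 0.59 (adjusted p = 0.096) against X lines and 1.05 (adjusted p = 6.4e-05) against SC lines. RPN4 was lower in Hh euploid lines in both, at -0.57 ± 0.18 against X lines and -0.76 ± 0.15 against SC lines (SE, adjusted p of 0.027 and 0.000196), in contrast to the ancestors. These comparisons share the Hh lines. Gene length moved with them: over other genes, those under 1000 bases had medians of -0.11 against X lines and -0.45 against SC lines, and longer genes 0.14 and 0.25. The 19 members under 1000 bases had medians of -0.70 and -0.75, and the 14 longer ones -0.57 and -0.52. Against run 2 of the ancestor, other short and long genes both had medians within 0.01 of 0, while members had -0.74 (short) and -0.34 (long). Against run 1, other genes had -0.39 (short) and 0.20 (long), and members -0.51 and -0.15. All core subunits are under 1000 bases, as are RPN10, RPN11, RPN12, RPN13 and SEM1 of the regulatory particle, so particle and length largely go together. The part of length in the difference was not tested.

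**Figure D5:**
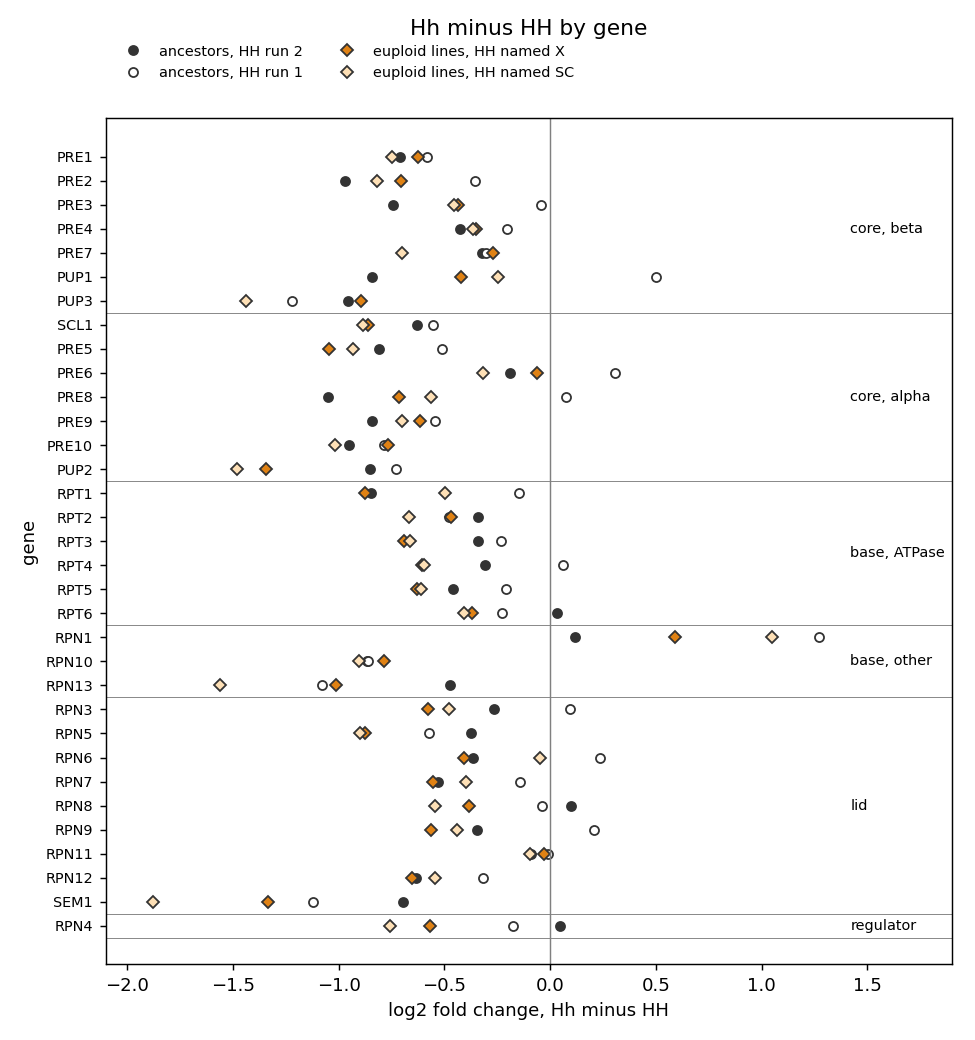
Log2 fold change, Hh minus HH (x axis), for the 33 genes (y axis, grouped by complex), from the ancestors (circles, filled against HH run 2 and open against run 1) and from euploid lines (diamonds, dark against HH lines named X and light against those named SC). Core subunits lie left of 0 in most comparisons, RPN1 lies right of 0 in all 4, and RPN4 lies near 0 for ancestors and left of it for lines.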

How the data were processed

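RNA was sequenced from 116 libraries, with stranded kits and single-end reads of 75 bases per the labels' protocols. The deposited tables of counts give, for each gene, the number of reads that the authors assigned to it. The submitters' processing notes name TopHat2 2.1.1, Trim Galore 0.4.4, HTSeq 0.6.1pl and the build sacCer3. For the deposited FPKM values the same notes name Cufflinks and Cuffnorm 2.2.1. Neither the notes nor the labels state how strand was set when counting; no member overlaps another annotated gene in R64. Reads that did not align uniquely (7.12% to 68.4% of a library) and rows that name no gene stayed out of library sizes and tests.

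The 33 members and the other gene lists were chosen with earlier results of these data known. Named are all members, RPN2, genes of the lists that pass a class test, and the 10 genes with the highest r with RPN4. Tests on counts used edgeR 4.0.16 in R 4.3.3 (quasi-likelihood, TMM, filterByExpr), fitted on the whole table and adjusted by Benjamini-Hochberg over all genes tested, with a threshold of 0.05. Class, line and slope fits used counts summed over the 3 colonies of a line, ancestor fits single libraries. Alternatives were DESeq2 1.42.0, RLE scaling, no low-count filter, an offset for copy number, and leaving out lines, replicate numbers or doubted libraries. Slopes used the labelled copies, and the partial gain of X in Hh76 was not coded. SC and X in library names were taken for the 2 runs of the HH ancestor, which the labels do not state for lines. The titles placed 3 libraries in HH2, where descriptions of replicates 2 and 3 name other lines. The series text gives 12 euploid HH and 6 euploid Hh lines, 1 more each than the labels.

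No pair of colonies agreed within sampling noise (chi-square per degree of freedom of at least 7.04 over 115 pairs). The p-values against ancestors measure the spread between libraries, which may be technical.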

Additional observations from a re-analysis of the deposited data

Results flagged for a closer look

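Groups of 4 to 10 lines were tested for a sample far from the others, which leaves out the 11 euploid HH lines, HH4 among them. Chance flags about 1 in 20 groups, but the groups share lines and subunits vary together, so flags are not independent. Of 99 groups, 11 had such a sample. In 6 of them the line has a labelled gain of the gene's chromosome: PRE2 (360 CPM) and RPN7 (261 CPM) in Hh8, PUP1 (141 CPM), PRE10 (384 CPM) and RPT5 (295 CPM) in Hh11, and RPN10 (504 CPM) in HH108. The other 5 lie on chromosomes with 2 copies: PRE4 (461 CPM) and PRE10 (535 CPM) in HH108, and PUP3 (246 CPM), PRE10 (279 CPM) and RPN6 (358 CPM) in the euploid line Hh5, each the highest of its group. The class effect of RPN13, Hh minus HH, differed between the experiments by 0.59 on the log2 scale (interaction in the edgeR fit, adjusted p = 0.049), beside chromosome XII raised in Hh77, Hh18 and 1 library of Hh11.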

How the results depend on the processing

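Members called between the Hh classes numbered 1 as reported, 2 with the copy-number offset, 0 without doubted libraries and 0 to 4 over lines left out (0 without replicate number 2). All genes called between those classes numbered 611 as reported, 1086 with DESeq2, 918 with the offset, 53 without doubted libraries, 173 without replicate 2 and 26 to 1547 over lines left out, and DESeq2 called 1 gene between the HH classes where edgeR called 0. For the class difference between experiments 1 member became 0 without doubted libraries, without a low-count filter or without Hh11, Hh18 and Hh77, and 2 with DESeq2. Single-line calls against euploid lines were 4 in HH, with 2 to 6 over replicate numbers left out and 0 with HH108 set with the X lines, and 1 in Hh, with 0 under RLE scaling, 4 without doubted libraries and 0 to 5 over replicate numbers left out. Against ancestors the 25 HH calls became 7 to 14 when a replicate number was left out and 11 with HH108 set against run 2. HH slopes differing from 0 numbered 1 to 3 over replicate numbers, those differing from 1 became 1 without doubted libraries and 0 to 1 over replicate numbers. Hh slopes differing from 0 numbered 6 to 14 over replicate numbers. Strain calls of members ran from 11 to 17 over single ancestor libraries left out and reached 30 with the SC lines, and the members' median was -0.23 with run 1, -0.61 with X lines and -0.61 with SC lines. Reversed were RPN4 between the Hh classes without replicate 2 (-0.071, with a highest value of 0.17 over replicate numbers), and in the strain comparison PUP1 (0.50), PRE8 (0.077) and RPN4 (-0.18) with run 1 and RPN4 with the lines (-0.57 and -0.76). RPN4's first 100 neighbours held 3 subunits in HH, 1 in Hh and 3 in euploid lines. Replicate numbers did not pair samples: deviations from the group means of same-numbered libraries had a median correlation of 0.014 in HH (-0.71 to 0.92) and 0.17 in Hh (-0.69 to 0.89), beside -0.0041 and -0.071 for libraries with different numbers. With a replicate block, member calls against ancestors were 26 in HH and 6 in Hh, where 25 and 3 are reported, and 16 between the ancestors. The cause was not tested for any of these. The alternatives with X or SC euploid lines, with HH108 set elsewhere, without Hh11, Hh18 and Hh77, and the dosage ratios and co-variation without doubted libraries or lines, were chosen after seeing the data.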

Other observations

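Chromosome IX carries no gene of the 33 but holds RPN2, and was labelled as altered alone in some HH lines. In HH15 and HH88, labelled trisomic for IX, all 33 members were below the euploid HH lines, with medians of -0.24 and -0.31 on the log2 scale and 0 called (edgeR quasi-likelihood test, 0 members at an unadjusted p under 0.05). Those medians are edgeR fold changes over the 33 members. Subunits vary together across lines (median r of 0.53 over pairs), so members that share a sign are not separate observations. The same holds for the counts of signs given for HH4, HH108 and Hh5. The log2 ratios used for dosage had medians over 32 subunits of -0.21 in HH15 and -0.30 in HH88. By that ratio, which is also used for HH119, HH29 and HH123 below, RPN4 was lower at -0.60 in HH15 and -0.45 in HH88, while RPN2 stood at 0.40 and 0.15. In HH119, also trisomic for IX, 3 of 32 subunits were above 0, the median was -0.12, RPN4 stood at 0.08 and RPN2 at 0.41. In HH29, labelled monosomic for IX and named X, 28 of 32 subunits were above 0, the median was 0.13, RPN4 stood at -0.02 and RPN2 at -0.84. Low subunits were also seen without a change of IX: in HH123, labelled trisomic for V, 0 of the 29 subunits on other chromosomes were above 0, with a median of -0.24, and the euploid line HH3 had a subunit median of -0.23 after centring within its name series.

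The euploid line Hh5 had 30 of 32 subunits above the other euploid Hh lines, with a median of 0.31 and 0 members called (edgeR, 6 at an unadjusted p under 0.05).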
